A study of Homo sapiens with 18 samples.

Results

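The 2 HEK293 knockout lines of this study, UFM1-KO and UFSP2-KO, were compared in their whole-cell mRNA. HEK293 is an established human embryonic kidney line. The comparison rests on 4 of the 18 libraries of the series, 2 of UFM1-KO and 2 of UFSP2-KO, chosen by the line and the whole-cell fraction that their labels give. The other 14 libraries are 2 of WT mRNA and 12 of ribosome footprints from membrane and cytosolic fractions of the same 3 lines. UFM1-KO is 1 clonal line made by Cas9 with a guide against UFM1, UFSP2-KO is 1 clonal line made with a guide against UFSP2, and WT is HEK 293 labelled without an edit or a clone. All lines grew in DMEM with 10% FBS at 37 °C, and no agent was added in any group. Cells were lysed with Triton, debris was spun out, and RNA was depleted of ribosomal RNA and sequenced with a stranded kit, as the labels' protocols say. Since each knockout is 1 clone, the loss of the gene and any other difference between the clones cannot be told apart. The labels do not say that libraries a and b came from separate cultures, so every p-value measures only the spread between these libraries, which may be technical.

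UFM1 is a small ubiquitin-like protein that an enzyme cascade attaches to lysines of other proteins. RPL26, which sits on the large ribosomal subunit near the exit of the nascent chain, is a known target on ribosomes at the endoplasmic reticulum. UFSP2 is a protease that trims the UFM1 precursor and takes UFM1 off its targets. Cells without UFM1 therefore have no modifier to attach, while cells without UFSP2 are known to build up modified RPL26. In RefSeq's GRCh38.p14 annotation, UFM1 lies on chromosome 13 from 38349851 to 38363619, UFSP2 on chromosome 4 from 185399537 to 185425964, and RPL26 on chromosome 17 from 8377516 to 8383193.

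The deposited tables give a whole-number count per versioned Ensembl transcript and a length for it, read here as coding length in codons. Transcripts with identical counts in all 6 mRNA libraries were merged, and the result is called a feature below. A merged feature carries the length of its first transcript in the deposited order, and the others can differ in length. The 48110 transcripts with any count gave 36328 features, of which 30154 held 1 transcript and 6174 held several, and 33671 features passed the filter on low counts. Isoforms of a gene share reads and mostly remain separate features, so a gene can be counted several times and calls are not independent of each other. The transcript IDs were found in 0 of the reference tables at hand, and the tables do not pair IDs with genes. The mRNA of UFM1, UFSP2 and RPL26 was therefore not looked up, the knockouts and the kidney identity of the line were not checked in these counts, and the gene lists of pathways and of cell type markers were not tested. Features are described by level, length, direction and footprints, and 4 are named by their transcript ID.

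After merging, the mRNA libraries held 29230448 counts (UFSP2-KO b, the shallowest) to 54104913 counts (UFM1-KO a, the deepest). Libraries a and b of a line correlated across features with Pearson's r of 0.975 in UFM1-KO, 0.972 in UFSP2-KO and 0.972 in WT, and the SD of their log2 difference was 0.55 to 0.61. In a multidimensional scaling of the 6 libraries the first dimension took 56.6% of the variation. It placed UFM1-KO a and b at -2.10 and -2.21, UFSP2-KO a and b at 2.27 and 2.47, and WT a and b at -0.07 and -0.36. The knockouts thus stood at opposite ends of this dimension with WT between them.

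The mRNA of the knockouts differed in 4904 of the 33671 features tested (14.6%), by edgeR's quasi-likelihood test at an adjusted p under 0.05. UFM1-KO had the higher level in 2468 (7.33%) and UFSP2-KO in 2436 (7.23%). At an unadjusted p under 0.05 the count was 10186 (30.3%). The calls were split nearly evenly with TMM scaling, 50.3% being higher in UFM1-KO. With library totals alone the median difference of all features moved by 0.09 on the log2 scale and 60.3% of the calls were higher in UFM1-KO, so the balance of directions depends on the scaling.

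Most called differences were over 2-fold, and these were more often in favour of UFM1-KO. The median absolute log2 difference was 0.41 over all features tested and 1.16 over those called. A difference of over 2-fold was called in 3072 features (9.12%), with UFM1-KO above in 1710 and UFSP2-KO above in 1362. Over 4-fold the numbers were 670 and 459, over 8-fold 387 and 296, and over 32-fold 180 and 158. Differences of up to 2-fold went the other way in number, with UFM1-KO above in 758 calls against 1074 for UFSP2-KO.

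**Figure D1:**
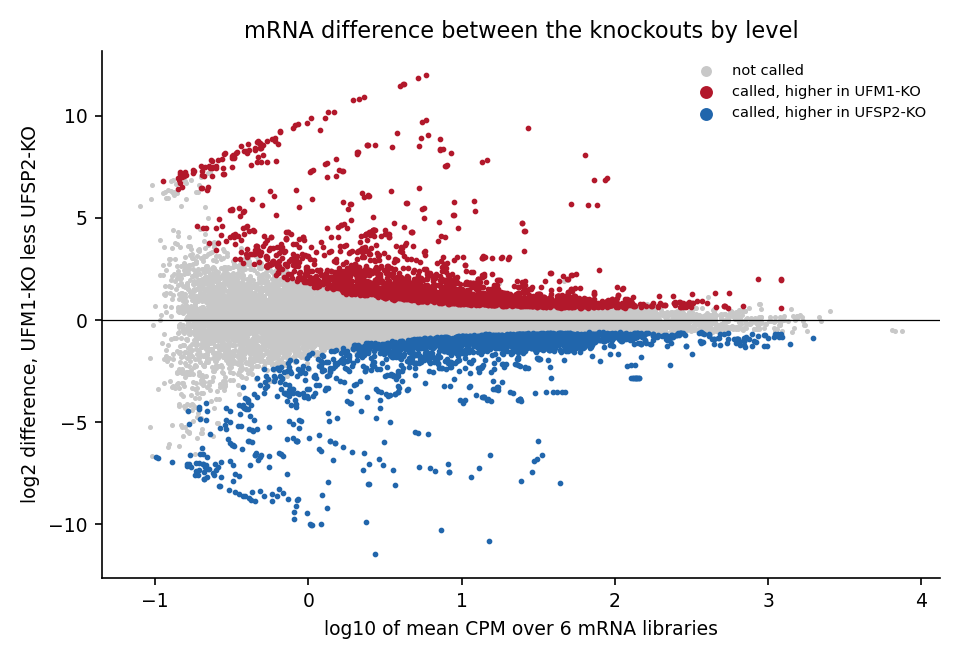
Each point is 1 of 33671 mRNA features, with the log10 of its mean CPM over 6 mRNA libraries on the x axis and the fitted log2 difference, UFM1-KO less UFSP2-KO, on the y axis. Red points (2468) were called higher in UFM1-KO, blue points (2436) higher in UFSP2-KO, and grey points were not called. The upper and lower streaks to the left hold features near 0 counts in 1 of the knockouts, where the fitted value depends on the prior count.

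The direction of the calls changed with level. Levels are given as CPM, library-size-scaled counts after TMM, which are not divided by length. Of features with a mean under 1 CPM over the 6 libraries, 461 of 4097 were called and 56.0% of these were higher in UFM1-KO. Between 1 and 10 CPM, 1868 of 12278 were called, 63.9% of them higher in UFM1-KO. Between 10 and 100 CPM, 2294 of 15761 were called, 40.2% of them higher in UFM1-KO. Over 100 CPM, 281 of 1535 were called and 33.1% were higher in UFM1-KO. Scarce features called between the knockouts thus leaned to UFM1-KO and abundant ones to UFSP2-KO. The median difference of all features of a class moved the same way, from 0.24 under 1 CPM to -0.08 over 100 CPM on the log2 scale. Whether this order by level holds with other scalings, or with single libraries left out, was not tested.

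Coding length also went with direction. In 5 classes of nearly equal size, UFM1-KO was above in 295 calls against 458 for UFSP2-KO at lengths of 3 to 176, and 683 and 462 at lengths of 764 to 34331. The share of calls higher in UFM1-KO ran from 39.2% in the shortest class through 42.4%, 48.0% and 57.2% to 59.7% in the longest. The median log2 difference of all features ran from -0.04 in the shortest class to 0.11 in the longest. Libraries of 1 line also differed from each other in their trend with length. Across 17296 features of at least 10 CPM, the correlation of a library's log2 deviation from the mean with log2 length was 0.12 in UFM1-KO a and -0.11 in UFM1-KO b, -0.23 in UFSP2-KO a and -0.06 in UFSP2-KO b, and -0.12 in WT a and 0.37 in WT b. When each library's length trend was removed, the shares in the shortest and longest class were 46.9% and 46.4%, with 5425 features called in all. The removal takes out any tie of level with length, whether it belongs to a line or to a library. The levelled shares therefore do not tell these apart. Without UFM1-KO a, 49.5% of the calls in the shortest class were higher in UFM1-KO. The part of these trends in single calls was not tested.

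**Figure D2:**
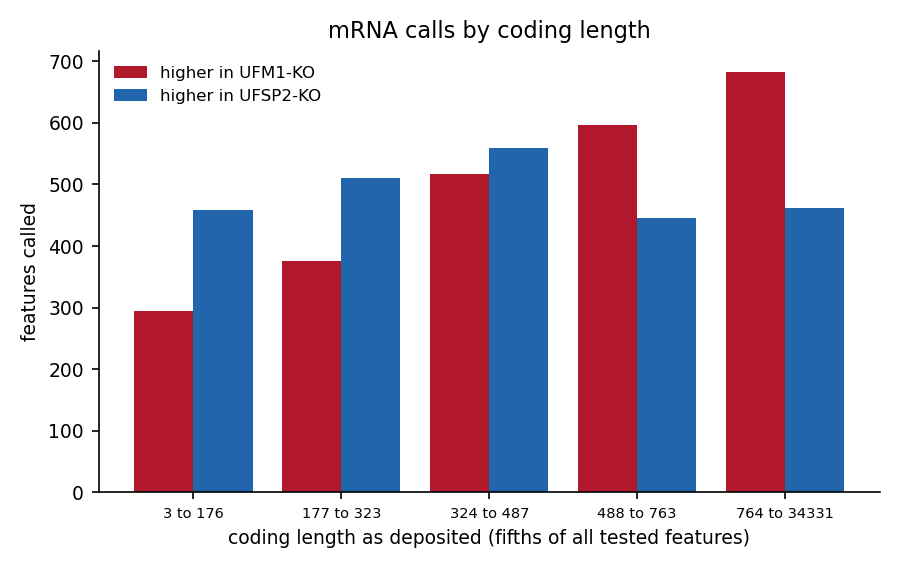
Bars give the number of features called higher in UFM1-KO (red) and in UFSP2-KO (blue) in 5 classes of coding length, each with about the same number of tested features. Red bars grow from 295 in the shortest to 683 in the longest class, and blue bars exceed red ones in the 3 shorter classes. Removing each library's length trend, which by design takes out any tie with length, levels the shares at 46.9% and 46.4% in the outer classes.

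The most abundant features that differed over 2-fold were ranked by mean CPM over the knockout libraries. The first of those higher in UFM1-KO, with a coding length of 622, had 1974 and 1865 CPM in UFM1-KO a and b, 569.6 and 420.7 CPM in UFSP2-KO, with WT at 1353 and 1095 CPM. Its groups did not overlap, WT lay between the knockouts, and the log2 difference was 1.95 (SE 0.21, edgeR adjusted p = 1.77e-05). The next 2 features, of lengths 622 and 457, had nearly the same profile, with 1338 to 1982 CPM in UFM1-KO and 289.6 to 546.1 CPM in UFSP2-KO. The fourth had 1123 and 608.6 CPM in UFM1-KO against 335.2 and 364.2 CPM in UFSP2-KO, with WT at 453.5 and 452.8 CPM, a log2 difference of 1.31 (SE 0.24). Here UFM1-KO b stood much nearer to WT than UFM1-KO a did. The fifth, of length 110, repeated that profile with 920.9 and 490.1 CPM in UFM1-KO against 262.0 and 293.0 CPM in UFSP2-KO.

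Among those higher in UFSP2-KO, the most abundant feature, of length 356, had 786.9 and 944.7 CPM in UFM1-KO, 2260 and 1711 CPM in UFSP2-KO, with WT at 1303 and 1344 CPM. WT again lay between non-overlapping knockouts, and the log2 difference was -1.20 (SE 0.20, edgeR adjusted p = 0.000975). The second, of length 627, merged 3 transcripts. It had 611.6 and 629.8 CPM in UFM1-KO, 1509 and 1485 CPM in UFSP2-KO, with WT at 998.0 and 675.9 CPM. Its knockout libraries were close within each line, whereas the WT libraries were spread over much of the gap between them. The third and the fifth followed it closely, at log2 differences of -1.27 and -1.26, and the fourth, of length 133, differed by -1.06.

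Where WT stood was described for all calls without a test, since each knockout's difference from WT uses the same libraries as the difference between the knockouts. Against WT, 618 features were called in UFM1-KO (1.84%), with 135 of them above WT (0.401%) and 483 below it (1.43%). In UFSP2-KO the number was 2139 (6.35%), with 718 above WT (2.13%) and 1421 below it (4.22%). The direction of the calls was not stable. UFM1-KO was above WT in 21.8% of its calls, and in 48% without UFM1-KO b and 8.82% without WT a. UFSP2-KO was above WT in 33.6%, and in 51.2% without UFSP2-KO a, 19% without WT a and 16.9% with library totals alone. The counts also moved with single libraries, from 128 without WT b to 1581 without UFSP2-KO b for UFM1-KO, and from 380 without WT b to 3487 without UFM1-KO a for UFSP2-KO. Both WT libraries lay between the knockouts in 1200 of the 2468 features higher in UFM1-KO (48.6%) and in 1211 of the 2436 higher in UFSP2-KO (49.7%). Of all features tested, WT lay between in 10.7% where the UFM1-KO mean was higher and in 12.1% where the UFSP2-KO mean was higher. Among the calls, both WT libraries lay above both knockouts in 116 of those higher in UFM1-KO (4.7%) and 86 of those higher in UFSP2-KO (3.53%). They lay below both knockouts in 4 (0.162%) and 30 (1.23%) of these calls. Of all features tested, the shares above were 11.4% where the UFM1-KO mean was higher and 8.77% where the UFSP2-KO mean was higher. The shares below were 6.3% and 9.36%.

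For the 670 features over 4-fold higher in UFM1-KO, the median log2 difference from WT was 0.87 for UFM1-KO against -2.48 for UFSP2-KO. For the 459 features over 4-fold higher in UFSP2-KO, it was -2.22 for UFM1-KO against 1.08 for UFSP2-KO. In both sets the knockout with the lower level stood farther from WT in the median than the knockout with the higher level. The sets were chosen by the difference between the knockouts, and their median levels were 1.70 and 1.33 CPM. For features near 0 in the lower knockout the log2 difference from WT depends on the prior count. Its part in this order was not tested. WT lay between the knockouts in 61.8% of the first set and 49.9% of the second.

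At the far end stood features that were nearly absent from 1 knockout. A feature was counted here when its libraries held up to 3 counts in all in 1 knockout and its mean was at least 1 CPM in the other, and since this choice uses the same values, the numbers are a description. There were 67 such features near 0 in UFSP2-KO (0.199% of those tested) and 61 near 0 in UFM1-KO (0.181%). Of the 67, 34 had 0 counts in both UFSP2-KO libraries, and their level in UFM1-KO ran from 1.003 to 15.49 CPM with a median of 2.62. WT held them at 0.041 to 8.42 CPM, median 0.82, with 0 of the 67 down at 3 counts or fewer. In 56 of the 67 both WT libraries lay below both UFM1-KO libraries, and in 0 they lay above. The 67 features near 0 in UFSP2-KO were thus all detected in WT, mostly at a lower level than in UFM1-KO. Choosing features by their level in UFM1-KO favours WT lying below it. The share over all features was not counted for this order. Without UFSP2-KO a, the remaining shallow library alone would put 161 features near 0.

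Of the 61 features near 0 in UFM1-KO, 26 had 0 counts there, and UFSP2-KO held them at 1.03 to 43.4 CPM, median 1.51. WT ran from 0 to 5.95 CPM, median 0.71, and 11 of the 61 had 3 or fewer counts in WT as well. Both WT libraries lay below both UFSP2-KO libraries in 40 and above them in 11. Here too the choice favours WT lying below UFSP2-KO, and the share over all features was not counted. The set of 61 thus holds 11 features that were near 0 in UFM1-KO and WT alike, beside 26 that WT held at 1 CPM or more. The median coding length was 257 for the set near 0 in UFSP2-KO and 642 for that near 0 in UFM1-KO.

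**Figure D3:**
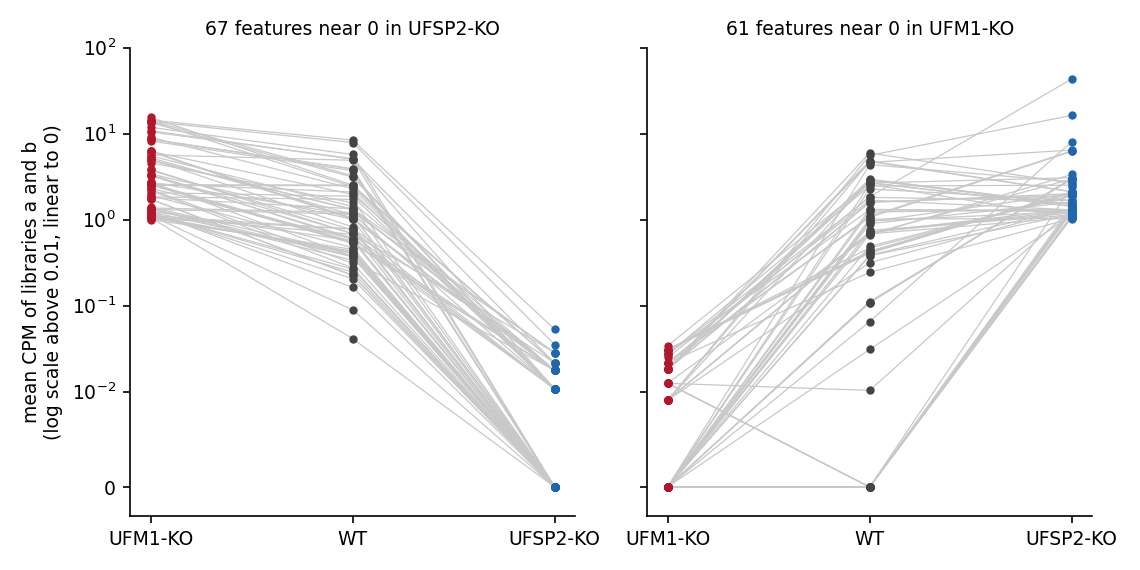
Each line follows 1 feature through the mean CPM of libraries a and b in UFM1-KO, WT and UFSP2-KO, on a log axis that turns linear below 0.01 to show 0. Left, the 67 features near 0 in UFSP2-KO, all with counts in WT. Right, the 61 features near 0 in UFM1-KO, of which 11 have 3 or fewer counts in WT.

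Named here are the 2 features with the largest difference in each direction among calls of at least 10 CPM in the higher knockout with no overlap between libraries. ENST00000456430.6, of coding length 1217, had 606 and 511 counts in UFM1-KO a and b (11 and 12.73 CPM), 0 counts in both UFSP2-KO libraries, and 5.01 and 6.45 CPM in WT. It was at least 293.8-fold higher in UFM1-KO, taking 3 counts over the group as the floor, and edgeR's adjusted p was 6.12e-08. WT lay below UFM1-KO in both libraries, but that difference was not called (log2 1.05, SE 0.29, edgeR adjusted p = 0.0858). The difference between WT and UFSP2-KO was called (edgeR adjusted p = 8.36e-07).

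ENST00000295989.9, of length 1100, ran beside it, with 9.77 and 11.2 CPM in UFM1-KO, 0 counts in both UFSP2-KO libraries, and 4.60 and 5.63 CPM in WT. It was at least 260.1-fold higher in UFM1-KO (edgeR adjusted p = 7.58e-08). Its counts were a little below those of ENST00000456430.6 in each of the 4 libraries with counts, and whether these transcripts share reads was not tested.

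ENST00000266659.7, of length 247, went the other way. It had 1 count in each UFM1-KO library, 40.9 and 45.9 CPM in UFSP2-KO (1910 and 1303 counts), and 2.32 and 1.38 CPM in WT. The level in UFSP2-KO was 2036 times that in UFM1-KO, with a 95% exact interval of 563.2 to 16820 that covers counting error only (edgeR adjusted p = 2.71e-09). WT stood apart from both knockouts on either side, with log2 differences from WT of -6.27 for UFM1-KO, a value that depends on the prior count, against 4.55 for UFSP2-KO, and both were called (edgeR adjusted p = 7.87e-06 and 3.19e-07).

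ENST00000010404.6, of length 136, stands for 4 transcripts with the same counts. It had 1 and 0 counts in UFM1-KO, 13.9 and 18.7 CPM in UFSP2-KO, with WT at 5.63 and 5.55 CPM. The ratio of UFSP2-KO to UFM1-KO was 1498, with a 95% exact interval of 268.4 to 59220 (edgeR adjusted p = 1.3e-08). The WT libraries were close to each other, and UFSP2-KO was above them by 1.54 on the log2 scale (SE 0.28, edgeR adjusted p = 0.00492).

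**Figure D4:**
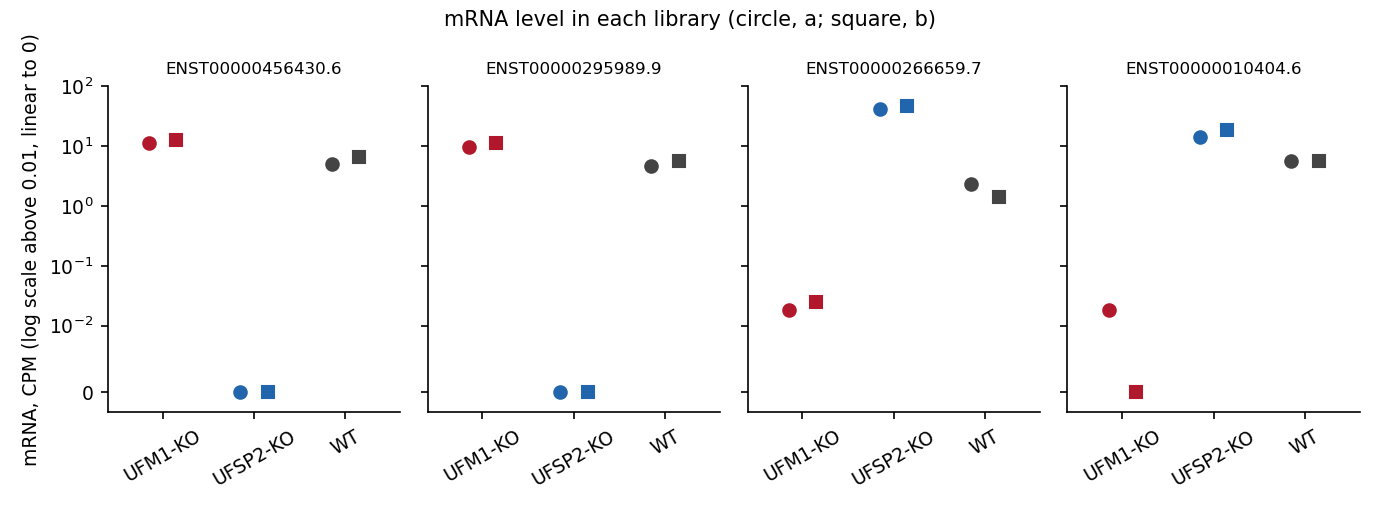
The mRNA level of the 4 named features in each of the 6 mRNA libraries, in CPM on a log axis that turns linear below 0.01 to show 0. Circles are libraries a and squares libraries b. WT lies between the knockouts in all 4 panels, and the lower knockout has 0 to 1 count per library.

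WT lay between the knockouts in all of the 14 features that this ranking put first for UFM1-KO, but not in all of the 14 put first for UFSP2-KO. Those higher in UFM1-KO had 10.5 to 112 CPM there, 0 to 0.391 CPM in UFSP2-KO and 2.41 to 78.1 CPM in WT. Those higher in UFSP2-KO had 10.4 to 128 CPM there, 0.0091 to 0.508 CPM in UFM1-KO and 0.224 to 43.6 CPM in WT. In this set WT lay below both UFSP2-KO libraries in 10 of 14 and above both UFM1-KO libraries in 11, and 4 had a WT mean under 1 CPM. The ranking picks the largest differences without overlap, which favours WT lying between. Both WT libraries lay between in 61.8% and 49.9% of calls over 4-fold higher in UFM1-KO and in UFSP2-KO. Of all features tested, they did so in 10.7% and 12.1%, by which mean was higher. How many genes the 14 in each direction stand for is not known without gene names.

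Ribosome footprints of the same clonal lines measured the same contrast in libraries that the mRNA comparison did not use. A difference that belongs to a clone would appear in both assays, so this does not separate clone from knockout. Between the knockouts, 2372 of 11065 features were called by membrane footprints (21.4%) and 1331 by cytosol footprints (12%), by edgeR's adjusted p. Leaving out single footprint libraries lowered these counts to as few as 1098 (without UFM1-KO membrane a) and 677 (without UFSP2-KO cytosol b). Footprint depth was far lower than mRNA depth, at 1920575 to 5965113 merged counts per knockout library for membrane footprints and 1025976 to 3406452 for cytosol footprints.

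Footprints mostly had the sign of the mRNA difference, and more often so in called features. Of 10871 features measured in both assays, 1781 were called in mRNA. In the membrane fraction 1723 of these (96.7%) had the same sign and 1029 (57.8%) were called in the same direction, with 0 called in the opposite one. In the cytosol 1598 (89.7%) had the same sign, 692 (38.9%) were called in the same direction and 0 in the opposite one, and 44 had a fitted difference of exactly 0. Over all 10871 features, called or not, the sign was the same in 77.7% for membrane and 74.6% for cytosol footprints, and over those not called in mRNA in 74.0% and 71.6%. Of features not called in mRNA, 14.2% were called in membrane footprints and 6.66% in cytosol footprints. Across all 10871 features the differences in mRNA and footprints correlated with Pearson's r of 0.80 for membrane and 0.58 for cytosol footprints. Features share the libraries and are not independent replicates.

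The size of the footprint difference followed that in mRNA. Among calls of 2-fold to 4-fold higher in UFM1-KO, the median log2 difference was 1.33 in mRNA, 1.30 in membrane footprints and 1.23 in cytosol footprints. For calls of 2-fold to 4-fold higher in UFSP2-KO the medians were -1.21, -1.01 and -0.99. For 73 calls of 8-fold or more higher in UFM1-KO they were 4.75 in mRNA, 4.67 in membrane footprints and 3.34 in cytosol footprints. For 47 such calls higher in UFSP2-KO they were -3.94, -4.53 and -3.50. Medians of the footprint differences thus lay near those of mRNA, with the cytosol nearer to 0 in the highest class.

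**Figure D5:**
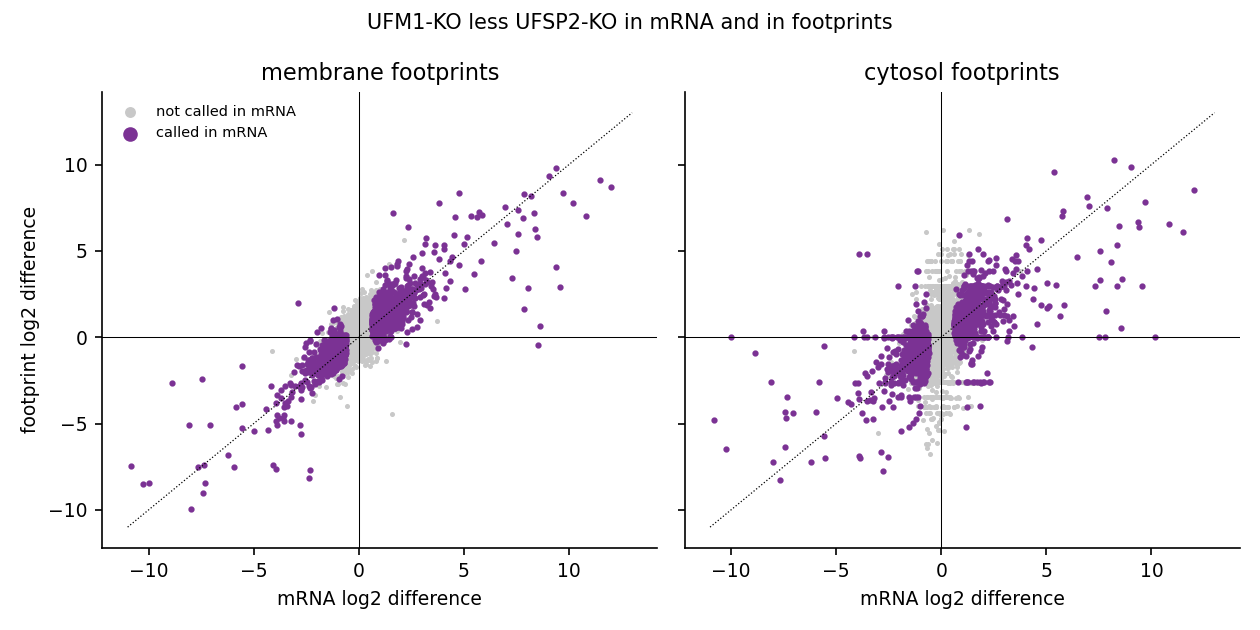
Each point is 1 of 10871 features measured in both assays, with the log2 difference UFM1-KO less UFSP2-KO in mRNA on the x axis and in footprints on the y axis, for the membrane fraction (left) and the cytosol (right). Purple points were called in mRNA (1781), grey ones were not, and the dotted line marks equal differences. Of the purple points, 96.7% have the same sign in membrane footprints and 89.7% in cytosol footprints, where horizontal streaks mark features with few footprint counts.

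The named features carried their mRNA difference into footprints where they had them. ENST00000456430.6 had 17.2 and 19.3 CPM of membrane footprints in UFM1-KO, 0 counts in both UFSP2-KO libraries and 19.2 and 13.7 CPM in WT. In the cytosol it had 15.1 and 16.6 CPM in UFM1-KO against 0 counts in UFSP2-KO. Both footprint differences were called (edgeR adjusted p = 2.05e-07 and 2.05e-06), and WT footprints were at the UFM1-KO level. ENST00000295989.9 was not among the footprint features.

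ENST00000266659.7 had 0.185 and 1.07 CPM of membrane footprints in UFM1-KO (1 and 2 counts), 73.3 and 90.3 CPM in UFSP2-KO, with WT at 2.45 and 2.51 CPM. That difference was called (edgeR adjusted p = 1.66e-09). In the cytosol its only knockout footprints were 5 counts in UFSP2-KO a, and the difference was not called (edgeR adjusted p = 0.217). ENST00000010404.6 had 113.6 and 114.2 CPM of membrane footprints in UFSP2-KO against 0.185 and 0.537 CPM in UFM1-KO, with 18.0 and 29.4 CPM in WT (edgeR adjusted p = 1.45e-12). In WT its footprints were enriched in the membrane fraction over the cytosol by 4.97 on the log2 scale (edgeR adjusted p = 3.53e-10). Its cytosol footprints were few in UFSP2-KO, 2 and 16 counts, and 0 in UFM1-KO.

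The 67 features near 0 in UFSP2-KO were linked to 15 distinct tested footprint features, each counted once where several mRNA features shared it. Of these, 12 were called higher in UFM1-KO by membrane and 11 by cytosol footprints. The 61 near 0 in UFM1-KO were linked to 6 distinct tested footprint features, counted likewise. All 6 were called higher in UFSP2-KO by membrane and 2 by cytosol footprints. A footprint feature was tested only if it passed the filter on low counts. Features near 0 in 1 knockout may have passed it through the groups where they are high, which favours such calls. These counts are therefore a description and no check of the mRNA difference. Of all footprint features, which were not chosen in this way, 11.2% were called higher in UFM1-KO by membrane footprints and 5.83% by cytosol footprints. For UFSP2-KO the shares were 10.2% and 6.2%.

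Features were also grouped by where their ribosomes were in WT cells, using the 4 WT footprint libraries alone. The membrane class held features whose membrane to cytosol ratio of footprint CPM was over 2 at an edgeR adjusted p under 0.05, and the cytosol class the reverse. Membrane-bound ribosomes translate secreted and membrane proteins, but without gene names the classes were not checked against known genes. Of 2462 mRNA features in the membrane class 495 were called between the knockouts (20.1%), with UFM1-KO above in 236 and UFSP2-KO above in 259. Of 7791 features in neither class 1123 were called (14.4%), 555 and 568 by direction. The share called in the membrane class was thus above that in neither class and that of all features, 14.6%. Most of all features, 22811, were not tested in WT footprints, and 13.9% of these were called. Both directions were present in the membrane class, and its median log2 difference was -0.02. With DESeq2 the shares called were 23.7% in the membrane class and 17.9% in neither class. The cytosol class was called nearly as often and was lopsided, with 117 of 607 called (19.3%), UFM1-KO above in 29 and UFSP2-KO above in 88. Without UFM1-KO a, the share of its calls higher in UFM1-KO was 34.5% in place of 24.8%. The membrane class took 13.2% to 14.4% of the CPM of features linked to a footprint feature in each of the 6 mRNA libraries, and the ranges of the 3 lines overlapped.

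Whether footprints differed between the knockouts more or less than mRNA did was tested in a joint edgeR model of both assays. Where several mRNA features shared a footprint feature, the first by transcript ID was kept here, whatever its level. Of 12444 features, 11 (0.0884%) had a membrane footprint difference that departed from the mRNA difference, 6 upward and 5 downward, and 4 (0.0321%) a cytosol footprint difference, all 4 downward. At an unadjusted p under 0.05 the counts were 931 (7.48%) and 661 (5.31%). Number and direction both depended on single libraries. For the membrane fraction the number ran from 2 to 20 and the upward share from 0% (without UFM1-KO membrane a) to 71.4% (without UFSP2-KO mRNA b or UFM1-KO membrane b). For the cytosol the number ran from 2 to 12, with 66.7% upward of the 12 without UFM1-KO cytosol b and 44.4% of the 9 without UFSP2-KO mRNA b.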

How the data were processed

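Whole-cell mRNA of UFM1-KO, UFSP2-KO and WT HEK293 (2 libraries each) and 12 footprint libraries were used. The authors deposited raw counts per versioned Ensembl transcript for each library, with no header and no normalization visible in the values. The submitters' processing notes name TopHat2 2.1.1 as aligner tool and GRCh38 as build. How reads were counted, with which annotation release and whether by strand, is not given in the sources used here. Of 98334 mRNA entries, 43611 had no length and 0 counts and were dropped. Entries with identical counts were merged, as arises when a shared read is counted for each isoform, so library totals before merging (37451244 to 68675420 counts for mRNA) exceed those after it. Footprint transcripts (26679 entries, 14377 merged features) were matched by ID without version and by length.

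Counts were tested in R 4.3.3 with edgeR 4.0.16 (filterByExpr with minimum count 10, TMM, quasi-likelihood test, 1 coefficient per group), with 1 model over 6 mRNA and 1 over 12 footprint libraries and two-sided Benjamini-Hochberg adjustment over all features of a comparison. The common biological coefficient of variation was 0.214 for mRNA. Standard errors of log2 differences were derived from the F statistic. Of mRNA features that shared a footprint feature, that with the highest mean CPM was kept in comparisons of signs, sizes and correlations between the assays. In the joint model the first by transcript ID was kept, whatever its level. The length trend that was removed was a lowess fit with span 0.3 to edgeR's log2 CPM over all tested features. The correlations with length used the log2 of CPM plus 0.5. Alternatives used DESeq2 1.42.0, other scalings, filters and feature sets, and fits without each library. The differences of library a less b correlated at -0.37 between UFM1-KO and UFSP2-KO mRNA. They correlated at 0.05 between UFM1-KO and WT and at -0.11 between UFSP2-KO and WT. Replicate letters were therefore not taken as pairs. Between the knockouts the differences ran in opposite directions, and the model without pairs counts this as spread. The procedure was tested on simulated data.

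The comparison and the gene lists were chosen with earlier results of these data known. The plan assumed gene names. Without them, features were ranked by log2 difference among calls of at least 10 CPM in the higher knockout whose libraries did not overlap (14 in each direction, the first 2 printed) and by mean CPM among calls over 2-fold (5 in each direction), and no list of genes was tested. The joint model, the features near 0, the WT classes, and the length and level classes were added with the data in view. Intervals and count floors cover counting error only.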

Additional observations from a re-analysis of the deposited data

Results flagged for a closer look

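In the joint edgeR model, 11 features had a difference between the knockouts in membrane footprints that departed from their mRNA difference, and 4 had such a departure in cytosol footprints. Each footprint feature was set beside 1 mRNA feature there, which need not be the most abundant of those that share it. The 2 strongest departures appear in both fractions. The first, of coding length 110, had 9.55 and 12.1 CPM of mRNA in UFM1-KO against 0.043 and 0 CPM in UFSP2-KO, but 53.2 and 55.3 CPM of membrane footprints in UFM1-KO against 76.1 and 73.6 CPM in UFSP2-KO. Its footprints were thus present in a line where the mRNA feature paired with them was near 0. The departure was -8.82 on the log2 scale (SE 0.57, edgeR adjusted p = 2.46e-11). In the cytosol it was -7.89 (SE 0.62).

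The second, of length 117, had 102 and 122 CPM of mRNA in UFM1-KO against 0.535 and 0.246 CPM in UFSP2-KO, while WT had 72.8 and 83.3 CPM. Its membrane footprints were 376.7 and 301.0 CPM in UFM1-KO and 52.8 and 40.6 CPM in UFSP2-KO, so that the footprints fell by less than the mRNA (departure -5.19, SE 0.40). The reverse direction was seen in a feature of length 413 with 0.436 and 0.548 CPM of mRNA in UFM1-KO and 100 and 69.8 CPM in UFSP2-KO, and 8.68 and 3.22 against 38.1 and 36.2 CPM of membrane footprints. Here too the footprint difference was nearer to 0 than the mRNA difference.

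In 3 further features shown here the footprints departed with no call in mRNA. A feature of length 5871 had 28.2 and 26.5 CPM of mRNA in UFM1-KO and 33.5 and 43.7 CPM in UFSP2-KO (edgeR adjusted p = 0.253), with 104.2 and 108.9 against 460.8 and 577.2 CPM of membrane footprints and 126.7 and 117.7 CPM in WT. A feature of length 604 had 15.4 and 19.7 CPM of mRNA in UFM1-KO and 17.1 and 14.1 CPM in UFSP2-KO, with 76.1 and 40.3 against 304.3 and 194.4 CPM of cytosol footprints (departure -2.34, SE 0.38). In both of these, the 2 UFSP2-KO libraries had more footprints than any library of UFM1-KO or WT. A feature of length 99 went the other way, with 25.1 and 28.6 CPM of mRNA in UFM1-KO and 28.21 and 20.98 CPM in UFSP2-KO (edgeR adjusted p = 0.75), and 66.3 and 77.8 against 15.3 and 22.7 CPM of membrane footprints. These features were chosen after their values were seen, and the directions of the departures depended on single libraries.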

How the results depend on the processing

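The named features stayed called in the same direction with RLE and library size scaling, both filters, DESeq2, only the 4 libraries, the replicate block over 6 libraries, unmerged transcripts, the length trend removed and each library left out; 3 of them were held by the footprint tables and stayed so there. The balance of directions was less stable. With the length trend removed, the shares of calls higher in UFM1-KO were 46.9% and 46.4% for the shortest and longest coding lengths, against 39.2% and 59.7%. That step levels such shares by design. Membrane footprint calls were 52.2% higher in UFM1-KO, and 45.8% with RLE, and cytosol ones 48.5%, and 64.9% with library size alone and 29.2% without UFSP2-KO cytosol b. The 4904 mRNA calls between the knockouts became 2169 with only transcripts of the footprint tables, where fewer features were tested, and ranged from 3107 (without UFM1-KO a) to 4626 with 1 library left out. With the replicate block the count was 4048 over 6 libraries and 2265 over the 4 knockout libraries, and a crossed pairing of the 4 gave 13936. The block gave 692 and 1927 calls against WT, and 3023 and 1750 in membrane and cytosol footprints. For UFM1-KO against WT, DESeq2 called 1212 and a fit of only the 4 libraries 1385, with 128 to 1581 without 1 library. For UFSP2-KO against WT, the 4 libraries gave 3246, with 380 to 3487 without 1 library. DESeq2 called 1276 membrane and 752 cytosol footprint features, and leaving out 1 library gave 1098 to 1573 and 677 to 1011. The joint model gave 2 to 20 and 2 to 12 without 1 library. The cause of these changes was not tested. An alternative with 1 feature per gene was not run, since no gene names were at hand. Where 1 library of a group was left out, the lone library was assumed to vary like the other groups. With 2 libraries per group and the low footprint depth, scarce features could not be compared in the cytosol.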
